A study of Lathyrus oleraceus with 4 samples.

Results

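The probes described here came from the normalized cDNA library of the pea shoot apical meristem (SAM). They were chosen by name, as the spots whose identifier is the letter N followed by 4 digits, with 4 such clones left out. This gave 1091 of the 2234 probes on the array that were not blank. The study's lists of changed transcripts were matched to 87 clones of the whole normalized library and to 83 of the clones kept. The shares called and the extremes below are those without the 4 clones left out. The remaining 1143 probes came from a subtracted SAM library (296), a standard SAM library (290), a GenBank-derived set (553) and the 4 clones left out. The GenBank-derived set holds every probe that was not blank and had no library identifier. The study also describes control spots such as actin, and these were not separated from it. Each probe of the normalized library is an oligonucleotide synthesized in place on a CombiMatrix chip and designed from the sequence of 1 cloned transcript. Whether it binds that transcript alone was not checked. SAMs without visible leaf primordia were dissected from 10-day-old greenhouse-grown garden pea (cultivar Torsdag), about 80 SAMs for each RNA extraction. They were set against non-meristem tissue (NM) of the same species, a mixture of primary stem, primary root and mature leaf, so that a ratio compares the meristem with 3 organs together and not with any of them alone. There were 4 arrays, each hybridized with SAM and NM of 1 independent collection in different dyes. SAM was in Cy3 and NM in Cy5 on arrays 1 and 3, and SAM was in Cy5 and NM in Cy3 on arrays 2 and 4. Each array is 1 sector of a 4-sector chip, and the 4 collections, each of many plants, are the replicates. Every direction below rests on an inferred assignment of dyes to the deposited channels, given with the processing.

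The shoot apical meristem is the small dome of dividing cells at the tip of the shoot that produces leaves, stem and axillary buds. A cDNA library made from it holds many copies of a few abundant messages, such as those for histones and ribosomal proteins. Normalization lets the abundant cDNAs reanneal and removes them, so that clones picked at random sample more of the scarce messages. Normalization works within 1 tissue and removes nothing because another tissue also makes it. A subtracted library, in contrast, is depleted of cDNAs that a second tissue shares. The comparison therefore asks how many of the transcripts sampled from the normalized library are also found outside the meristem, and at what relative level. The probe sequences were not used here, and whether 2 probes report the same transcript was not checked.

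All 1091 probes gave a signal in NM above the brightest blank spot of the same array and channel, on all 4 arrays. With the limit set at 2 times the brightest blank, 993 probes (91.0%) passed in SAM and 1063 (97.4%) passed in NM on all 4 arrays. The probes that failed in SAM all did so on array 2, where the median SAM signal over the brightest blank was 2.99, and those that failed in NM all did so on array 3, where the NM median was 3.25. The median signal of the members was 411, 158, 546 and 728 intensity units in SAM on arrays 1 to 4, and 236, 374, 327 and 424 in NM. The 2 channels of an array thus differed in brightness as a whole, and ratios below are those after normalization within each array. Blank spots carry no oligonucleotide, and the background was not subtracted. Binding of unrelated sequence to a probe was not measured, so a signal above the blank is not by itself evidence of the transcript.

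Most probes of the normalized library gave a normalized SAM/NM ratio near 1. Dim probes, whose ratios may be compressed, are counted among them. A transcript was called at a Benjamini-Hochberg adjusted p under 0.05 in limma together with a SAM/NM ratio above 1.3 or below 0.7. By this rule 49 members (4.49%) were called higher and 36 (3.3%) were called lower in SAM, and 1006 (92.2%) were not called. Over all 2234 probes the shares were 9.76% called higher and 7.34% called lower. Over the 1143 other probes they were 14.8% and 11.2%. The subtracted library had 21.6% called higher and 1.01% called lower, the standard library 25.2% and 7.24%, and the GenBank-derived set 5.24% and 18.6%. The split into 49 higher and 36 lower (57.6% higher) depended on how the arrays were centred. It was 116 and 24 (82.9% higher) when only the GenBank-derived probes shaped the normalizing curve, and 16 and 26 (38.1% higher) when the median of each array was subtracted and no curve was fitted. Without array 3 it was 30 and 33, and without array 4 it was 27 and 27.

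A missed call does not show equal levels, so the 95% interval of each ratio was also read. It lay wholly within 2-fold of equality for 1045 members (95.8%), compared with 88.0% of all probes, and wholly between the ratio limits of 0.7 and 1.3 for 758 members (69.5%), compared with 59.8% of all probes. The interval reached across the 2-fold bound for 38 members. It lay wholly beyond 2-fold for 8 members, 1 of them higher and 7 lower in SAM. The narrowest intervals belonged to N0962, N0210 and N0711. N0962 had log2 SAM/NM ratios of -0.09, -0.08, -0.11 and -0.14 on arrays 1 to 4, with an interval of -0.30 to 0.08. N0210 ranged over the arrays between -0.01 and 0.05, and N0711 between -0.07 and 0.01. A further 26 members had an adjusted p under 0.05 with a ratio inside the limits, so that 111 members passed the p threshold in all and 190 had an unadjusted p under 0.05.

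The log2 ratios of the members were centred on 0, with a median of 0.001 over the mean of the arrays and medians of -0.007, 0.009, -0.025 and 0.011 on the single arrays. This centre is set by the normalization, whose curve is fitted to all probes, the members among them. With no normalization within arrays the members' median was 0.275, against 0.271 over all probes. The SD over members was 0.31, against 0.55 over all probes, and the middle 50% lay between -0.09 and 0.09. The extremes were -2.87 and 1.87, so the tail towards lower levels in SAM was the longer one. A mean ratio above 2 was seen for 6 members and one below 0.5 for 15, against 77 and 79 of all probes. These counts depend on the normalization and were not repeated under the alternatives. With the curve through the GenBank-derived probes, the log2 ratio of N1485 rose from 0.77 to 1.15, and that of N0717 from -1.73 to -0.83. The median SD of a member over the 4 arrays was 0.19, and the median SE of its mean was 0.10.

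The spread of the ratios widened with signal. Members were divided into 4 groups by the geometric mean signal over both channels and all arrays, with median signals of 252, 315, 449 and 817. The SD of the mean log2 ratio was 0.08, 0.16, 0.32 and 0.50 in these groups, and the interquartile range was 0.09, 0.16, 0.25 and 0.28. The variation between arrays changed much less, with a median SD over arrays of 0.16, 0.19, 0.21 and 0.21. The largest absolute log2 ratio was 0.36, 0.70, 1.39 and 2.87. Calls followed the spread. None of the 273 dimmest members was called by limma's adjusted p and the ratio limits. The second group held 6 called higher and 1 called lower, the third 20 and 14, and the brightest 23 and 21. This came to 0%, 2.56%, 12.5% and 16.1% called.

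Probes of the other sources within the same signal limits also gained calls with signal, and had more of them in each group. There the shares called were 0.966% of 207, 9.52% of 210, 24.4% of 307 and 47.7% of 419 probes. The share called was thus lower for the members in each signal group, though in the dimmest group only 2 other probes were called. These shares were not tested against each other. The brightest group has no upper limit, and signals inside a group were not matched between the members and the other probes. A signal near the blank draws both channels towards the same value, which pulls a ratio towards 1. With the median blank subtracted, the members called were 54 higher and 45 lower, and 1026 had an interval within 2-fold. The interval lay between 0.7 and 1.3 for 252 members of the dimmest group and for 149 of the brightest. The share of members at a like level in both tissues therefore rests in part on dim probes, and how far their ratios were compressed was not measured. A signal is not comparable between probes as a level of transcript.

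Agreement between arrays was read over all members first. Of the 1091 members, 270 (24.7%) had the same sign on all 4 arrays, compared with 34.7% of all probes, and this share was 9.89%, 18.3%, 32.0% and 38.8% from the dimmest to the brightest group. All 49 members called higher and 33 of the 36 called lower had the same sign on every array, which the call itself favours, since it needs a mean that is large against the spread over the same arrays. Over the 1091 members, pairs of arrays with the same dye layout correlated at r = 0.80 (arrays 1 and 3) and r = 0.76 (arrays 2 and 4). Pairs with opposite layouts correlated at 0.29 (arrays 1 and 2), 0.37 (2 and 3), 0.50 (1 and 4) and 0.59 (3 and 4). Over the members not called, opposite layouts correlated at -0.29, -0.21, -0.05 and 0.03 in the same order, and same layouts at 0.57 and 0.60. Over the called members, opposite layouts correlated at 0.85, 0.84, 0.93 and 0.94, which the call itself favours. These are correlations across probes, which share their arrays and dyes and are not independent replicates.

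Arrays of the same dye layout resembled each other more than arrays of opposite layouts. Same-layout arrays gave the same sign for 72.9% and 72.7% of members, and opposite-layout arrays for 40.3% to 52.2%. When dye was fitted beside tissue, 276 members (25.3%) had an unadjusted p under 0.05 for dye, and 3 had an adjusted p under 0.05. The share at an unadjusted p under 0.05 was 18.3%, 23.4%, 29.4% and 30.0% from the dimmest to the brightest group. It included 7 of the 49 members called higher and 7 of the 36 called lower, and a dye effect makes a call harder to reach in a fit without a dye term. Both layouts were used on 2 arrays each, so that a constant dye effect cancels in the mean ratio and is left in the spread between arrays. With the dye term in the fit, 51 members were called higher and 37 lower, and these included all 49 and 36 of the fit without it.

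The arrays also differed in how far the called members moved. For the 49 called higher, the median log2 ratio was 0.44, 0.45, 0.72 and 0.65 on arrays 1 to 4. For the 36 called lower it was -0.83, -0.65, -1.11 and -1.09. Array 2 gave the smallest shift for 24 of the 36 called lower, and arrays 1 and 2 together gave the smallest for 45 of the 49 called higher (24 and 21). Of the 49 and 36 calls, 26 higher and 26 lower stood whichever array was left out.

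N1328 stood highest in SAM among the members. It had signals of 1610, 1540, 4160 and 6690 in SAM on arrays 1 to 4, against 476, 692, 570 and 744 in NM. The normalized log2 ratios were 1.55, 1.78, 2.27 and 1.87, all above those of any other called member on the same array. The mean was 1.87 ± 0.13 (SE, n = 4 arrays, limma adjusted p = 0.00014), a ratio of 3.64, and its 95% interval of 1.57 to 2.16 was the only one among the members that lay wholly above 2-fold. The study's annotation calls it a hypothetical protein after its Arabidopsis match, so that no function can be given.

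Next came N0701, an expressed protein named after rice, with log2 ratios of 0.72, 0.89, 1.38 and 1.46 (mean 1.11 ± 0.14, adjusted p = 0.00122). N0628 is annotated as a serine/threonine dehydratase, a pyridoxal phosphate enzyme that deaminates these amino acids. Its log2 ratios were 0.81, 0.89, 1.14 and 1.43 (mean 1.07 ± 0.12, adjusted p = 0.00073). N0640 had no protein match and gave 0.65, 1.33, 0.75 and 1.49 (mean 1.05 ± 0.16, adjusted p = 0.00241). Its values on arrays 2 and 4, with SAM in Cy5, were both higher than on arrays 1 and 3, with an unadjusted limma p of 0.002 for the dye effect. N1270, a chaperonin of the GroEL type, which helps other proteins to fold, gave 0.38, 1.03, 1.20 and 1.22 (mean 0.96 ± 0.15, adjusted p = 0.00314).

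The remaining members among the 12 highest with 1 direction on all arrays were N1286, N1167 and N0294, which encode ribosomal proteins, and N0580, N0871, N0681 and N1485. N0580 and N0871 had no protein match, with mean log2 ratios of 0.91 ± 0.12 and 0.79 ± 0.12. N0681, a hypothetical protein named after clover, had 0.78 ± 0.12. N1485, named a senescence-associated protein of pea, had 0.77 ± 0.10 (adjusted p = 0.00111). All 12 kept their call when any array was left out. With the arrays centred on their medians only, N0640, N1167 and N1485 lost the call at adjusted p = 0.0775, 0.141 and 0.0529, without a change of direction.

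Names for the clones came from the study's lists of changed transcripts, which were matched to 83 members, 39 of them called higher, 34 called lower and 10 not called here. Of the called members, 10 higher and 2 lower had no name. Because those lists hold transcripts chosen for their change on these same arrays, the counts by function below are no independent evidence of a direction. No transcript outside the lists could be named, so shares of a pathway cannot be given.

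The named members of the ribosome and translation group were all called higher, 8 of 8, with a median log2 ratio of 0.72. The order of the name search put plastid ribosomal proteins in the chloroplast group instead. Of these, N1081 and N0938 were called lower and N1132 was not called. Ribosomal proteins build the cytoplasmic ribosome, and their messages are typically abundant in dividing tissue. N1286 (60S protein L44) had log2 ratios of 0.81, 1.07, 1.32 and 1.07 on arrays 1 to 4, with a mean of 1.07 ± 0.11 (adjusted p = 0.00044). N1167 (40S protein S18) was the second brightest member, with signals of 2730, 3650, 9780 and 16400 in SAM against 1970, 2370, 3520 and 2840 in NM, and a mean of 1.02 ± 0.12 (adjusted p = 0.00082). N0294 (L30) had 1.02, 0.97, 0.90 and 0.61 (mean 0.87 ± 0.10, adjusted p = 0.00078). N0986 (S5), N1267 (S27) and N1249 (L3) followed with means of 0.71, 0.68 and 0.54. Probes for ribosomal proteins can share sequence within their families, and probe specificity was not checked.

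Both partners of 1 modification step of translation were in the same group. N1299 encodes deoxyhypusine synthase, the enzyme that starts the change of a lysine of eIF5A into hypusine, and N0969 encodes eIF5A itself, a translation factor that needs this residue. N1299 had log2 ratios of 0.27, 0.57, 0.82 and 1.28 (mean 0.73 ± 0.16, adjusted p = 0.0144), and N0969 had 0.44, 0.24, 0.82 and 0.23 (mean 0.43 ± 0.12, adjusted p = 0.041). All of these values were above 0, with a wide spread between arrays in both. Of the 8 calls in the translation group, 6 stood with any array left out and 4 under all 7 other normalizations and models. The exceptions to the first were L3, with an adjusted p of 0.0647 to 0.0807 without array 1, 3 or 4, and eIF5A, with 0.0534 to 0.155 whichever array was left out. Deoxyhypusine synthase lost its call under median centring alone, at adjusted p = 0.0556.

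Chromatin was represented by 2 called members, both higher in SAM. N1059 was annotated as SUVH4, which in Arabidopsis methylates lysine 9 of histone H3, and N1209 as chromomethylase CMT1, of the plant family of enzymes that methylate DNA at non-CG sites. SUVH4 had log2 ratios of 1.03, 0.22, 1.17 and 0.39, with a mean of 0.70 ± 0.17 (adjusted p = 0.0239). The higher pair were the arrays with SAM in Cy3, and the unadjusted limma p for its dye effect was 0.001. CMT1 had 0.20, 0.27, 0.85 and 0.52, with a mean of 0.46 ± 0.12 (adjusted p = 0.0374). Neither call stood with each array left out in turn. The adjusted p of SUVH4 was 0.0772 without array 1 and 0.061 without array 3, and that of CMT1 was 0.132 without array 3 and 0.145 without array 4. Under median centring it was 0.056 for SUVH4 and 0.281 for CMT1.

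The 3 called members of the cell cycle and cytoskeleton group were also higher. N0581, kinesin 1, a motor that moves along microtubules, had log2 ratios of 0.60, 0.27, 1.09 and 0.69 (mean 0.66 ± 0.13, adjusted p = 0.0108). N1289, a nuclear movement protein, had 0.23, 0.59, 0.97 and 0.70 (mean 0.62 ± 0.13, adjusted p = 0.0111). N0918, a cdc2-type kinase of the family that drives the cell cycle, had 0.43, 0.18, 0.72 and 0.75 (mean 0.52 ± 0.12, adjusted p = 0.0171). Every array gave a value above 0 for each of them. None of the 3 calls stood with each array left out. Without array 4 the adjusted p was 0.0563 for kinesin, 0.0611 for the nuclear movement protein and 0.0905 for cdc2, which was 0.0612 without array 3. Median centring gave 0.115 for the nuclear movement protein and 0.0669 for cdc2.

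Among regulators of transcription, N1255, a YABBY factor, was called higher. YABBY proteins are plant transcription factors that in Arabidopsis are known from the outer side of young lateral organs and not from the meristem itself. The log2 ratios were 0.60, 0.31, 0.51 and 1.17, with a mean of 0.65 ± 0.14 (adjusted p = 0.0153), and the call stood with any array left out but not under median centring (adjusted p = 0.0531). Markers of leaf primordia were not gathered as a list here, and the part of young leaf tissue in this value was not tested. N0754, a hypothetical protein that the study places with the SBP family of transcription factors in another listing, had 0.61, 0.53, 0.85 and 0.90 (mean 0.72). N0779, which is named after SLOW WALKER 1, an Arabidopsis protein of the nucleolus, had a mean of 0.49 and lost the call without array 3 or array 4. The name search for regulators also caught N0680 and N1121, both lower. N0680 is listed as a RING zinc finger and cellulose synthase (mean -0.83 ± 0.11, adjusted p = 0.00129). N1121 is listed as phosphofructokinase, an enzyme of glycolysis and no regulator of transcription (mean -0.55 ± 0.11, adjusted p = 0.00983). The N1121 ratio came inside the limit without array 2, and its adjusted p was 0.0533 without array 4.

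The lowest members in SAM were transcripts of the chloroplast and of photosynthesis. Of the 12 named members in this group, 10 were called lower, with a median log2 ratio of -1.56, 1 was called higher and 1 was not called. Mature leaf was in NM and absent from SAM, and the share of leaf RNA in NM was not measured. Photosystem I, the light-driven complex that reduces ferredoxin, gave the lowest of all. N0589 (subunit PsaD) had signals of 411, 169, 680 and 1510 in SAM, against 2320, 1220, 5670 and 5820 in NM. Its log2 ratios were -2.65, -1.91, -3.59 and -3.34, with a mean of -2.87 ± 0.25 (adjusted p = 0.00028). N1205 (subunit PSI-K) had -1.21, -0.88, -1.56 and -1.75 (mean -1.35 ± 0.15, adjusted p = 0.00063). For both subunits the NM signal exceeded the SAM signal of the same array on all 4 arrays.

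N1220 was listed as ribulose bisphosphate carboxylase, the enzyme that fixes carbon dioxide, while a second listing of the study gives the same accession as a homeobox transcript. Its log2 ratios were -2.74, -1.68, -3.23 and -3.60, with a mean of -2.81 ± 0.28 (adjusted p = 0.00044). N0712, ribulose-5-phosphate 3-epimerase, an enzyme of the same carbon cycle, had -0.81, -0.54, -1.70 and -2.36 (mean -1.35 ± 0.28, adjusted p = 0.0114). It was among the more variable members, with an SD of 0.84 over the arrays.

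The antenna proteins, which bind chlorophyll and pass light energy to the photosystems, were lower too. N0514 (LHCI type I) had signals of 629, 171, 795 and 896 in SAM against 3240, 1370, 4040 and 4000 in NM, and a mean log2 ratio of -2.68 ± 0.21 (adjusted p = 0.00018). N0717 (type II chlorophyll a/b binding protein) was the brightest member. It had 2270, 1800, 5350 and 9320 in SAM against 9130, 5020, 23100 and 16400 in NM, with log2 ratios of -1.42, -1.12, -1.87 and -2.51 (mean -1.73 ± 0.21, adjusted p = 0.00096). Array 2 gave the smallest shift for each of the photosystem and antenna probes named so far.

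Plastid ribosomal proteins, which belong to the separate ribosome of the chloroplast, lay on the other side of 0 from the cytoplasmic ones. N1081 (S18 of the 30S subunit) had log2 ratios of -2.43, -0.58, -3.02 and -1.98, with a mean of -2.0 ± 0.34 (adjusted p = 0.00466). N0938 (S12) had -1.99, -0.61, -1.46 and -1.50 (mean -1.39 ± 0.20, adjusted p = 0.0021). N1132 (S17) was the member of the group that was not called, with a mean of -0.48 and a ratio of 0.714 just inside the limit. The S18 named here and N1167, the S18 of the cytoplasmic subunit, are products of different genes. N0788, ferredoxin, was the photosynthesis name called higher, with 0.15, 0.35, 0.72 and 0.53 (mean 0.44), and its adjusted p was 0.0637 to 0.132 without array 2, 3 or 4. The listing does not say which ferredoxin it is, and forms outside the leaf exist.

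Both chlorophyll synthesis enzymes among the named members were called lower without 1 direction on all arrays. N1303, protochlorophyllide reductase, which makes chlorophyllide in light, had log2 ratios of -0.93, 0.06, -1.57 and -1.10 (mean -0.89 ± 0.23, adjusted p = 0.0336). N0880, the methyltransferase that acts on magnesium protoporphyrin, had -1.0, 0.05, -1.55 and -1.34 (mean -0.96 ± 0.24, adjusted p = 0.027). In each, array 2 lay near 0 and the other 3 arrays were clearly below it. The adjusted p lay between 0.061 and 0.151 for both when array 1, 3 or 4 was left out, and the mean was -1.20 for N1303 and -1.29 for N0880 without array 2. The unnamed N1472 showed the same layout at -0.78, 0.09, -1.05 and -0.86. Of the 10 photosynthesis members called lower, 8 kept the call with any array left out and under all 7 other normalizations and models. The exceptions were N1303 and N1393, a 19 kDa protein of the thylakoid lumen with -0.79, -0.05, -1.56 and -0.90 on arrays 1 to 4.

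Several members called lower encode other enzymes. N1417 is trans-cinnamate hydroxylase, which feeds the phenylpropanoid pathway towards lignin and flavonoids. Its log2 ratios of -1.23, -1.08, -1.13 and -1.08 had the smallest SD (0.07) among the called clones named here, with a mean of -1.13 ± 0.08 (adjusted p = 0.00018). N0805, 12-oxophytodienoate reductase of the family that includes a jasmonate biosynthesis enzyme, had -0.68, -1.46, -0.84 and -1.37 (mean -1.09 ± 0.15, adjusted p = 0.00158). Its shift was larger on the arrays with SAM in Cy5, with an unadjusted limma p of 0.004 for dye. N0695 (EXGT1, a xyloglucan-modifying enzyme of the cell wall) averaged -1.05, and N0725, an endo-1,4-beta-xylanase, averaged -0.73. N1377, a component of high-affinity nitrate transport, averaged -0.55 and came inside the limit without array 1 or array 3, at -0.48 in both cases.

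N1283, a nucleic acid binding protein after alfalfa, had -2.23, -0.52, -1.92 and -2.08 (mean -1.69 ± 0.26, adjusted p = 0.00309), with array 2 apart from the other 3. N0570, similar to an inositol phosphatase, had -1.68, -0.80, -1.93 and -1.08 (mean -1.37 ± 0.19, adjusted p = 0.0016). It was lower on the arrays with SAM in Cy3, with a dye p of 0.002, and lost the call under median centring at adjusted p = 0.0883. N1143, an unnamed pea protein, had -0.92, -1.43, -1.09 and -2.03 (mean -1.37 ± 0.18, adjusted p = 0.00126). The 12 lowest all kept their call with any array left out. In the group without a functional name, 17 members were called higher, 7 were called lower and 4 were not called. Among all members, 49 were called higher and 36 lower. The 17 include N0754, which the second listing places with the SBP family.

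Some members had a large mean ratio without a call. N0785 averaged 0.54 ± 0.33 (adjusted p = 0.379), which came from array 1 alone at 2.05, against -0.03, 0.19 and -0.04 on the others. N1082 averaged 0.54 ± 0.18 (adjusted p = 0.091), with -0.08 and 0.35 on the arrays with SAM in Cy3 and 0.76 and 1.12 on those with SAM in Cy5. N0223 averaged -0.53 ± 0.24 (adjusted p = 0.215), with the dyes the other way round at -0.79 and -1.40 against 0.24 and -0.16. Both had an adjusted p under 0.05 once dye was a term in the fit, 0.0136 for N1082 and 0.0274 for N0223. N0424 was the third of the brightest members and differed little, with signals of 2210, 2000, 5340 and 8830 in SAM against 3230, 2640, 4530 and 3210 in NM, and a mean log2 ratio of -0.05 ± 0.09.

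Members close to the ratio limits show what the limits separate. The last called higher were N0577 and N0248 at mean log2 ratios of 0.39 and 0.38, and the first outside were N0535 and N0927 at 0.34 and 0.34. The last called lower were N0902, a glycosyl hydrolase, and N0241, an endonuclease, at -0.52 and -0.53. The first outside were N0403 at -0.51 and N0870, an early nodulin-like protein, at -0.50. All 8 had an adjusted p under 0.05, and their intervals overlapped across the limit. None of the 4 called ones kept its call with each array left out in turn.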

How the data were processed

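RNA of SAM and NM was hybridized together on each of 4 CombiMatrix arrays, and the authors deposited raw intensity values, 1 for each channel of a spot, with no separate background. They also deposited log2 ratios of the first over the second channel, centred to within 0.00694 of 0 by array; a global loess with scaling between arrays gave these to within 3.17e-08, and they served as an alternative. Per the methods, spot intensities were read from the scanned images with the Combimatrix Microarray Imager. The members and lists were chosen with earlier results of these data known.

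The deposited columns do not name dyes, and Cy3 comes first in the labels. Channel 1 was taken to be Cy5: 128 of 128 GenBank-named probes of the study's lists then lie on the listed side and 0 in the reverse reading, under which every direction would turn. The array without a number in its label was taken as array 1, since the design gives its dye layout to arrays 1 and 3 and another label carries number 3.

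In limma 3.58.1 (R 4.3.3), 6 blank spots were left out, log2 ratios were normalized by a robust spline within each array without background subtraction, and 1 coefficient whose sign follows the dyes was fitted with lmFit and eBayes (prior SD 0.211, prior degrees of freedom 4.41). P-values were adjusted over 2234 probes. The number of arrays limits the precision: an exact sign-flip test of 4 arrays cannot go below p = 0.125, two-sided. The fit was tested on simulated data. Summaries used Python 3.11.15 with pandas 2.3.3, numpy 2.4.6 and scipy 1.17.1.

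Named clones were the 12 highest and 12 lowest called members with 1 direction, called members without 1 direction, the 3 brightest, the 3 largest not called, the 3 narrowest intervals, 2 members on each side of each limit, and up to 4 called members of each annotation list. N0969, N0986, N1267, N1249, N0754, N0779, N0788, N1132, N0695, N0725, N1377 and N1393 were added after their values were seen. The tables do not pair clones with annotations. Each of 230 listed accessions was matched to the clone whose fitted ratio and p came closest to the listed ones (summed relative difference at most 5.8e-06, and at least 0.00032 at the next clone), so the match itself uses these arrays.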

Additional observations from a re-analysis of the deposited data

Results flagged for a closer look

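Of 52 named clones, 1 had an array far from the other 3. N0785 gave a log2 SAM/NM ratio of 2.05 on array 1, against -0.04 to 0.19 on arrays 2 to 4. The gap was 0.891 of the whole range over the arrays, above Dixon's 95% critical value for 4 values. Chance flags about 1 in 20 groups of 4 tested in this way, and 1 flag in 52 is no more than that. N0785 was named for a large mean ratio without a call, a choice that favours a wide spread over the arrays. The member was not called, and its mean without array 1 was 0.04. The cause was not tested.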

How the results depend on the processing

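The 49 higher and 36 lower calls were 48 and 36 with a global loess, 47 and 37 with scaling between arrays, 46 and 36 from the authors' log2 ratios, 54 and 45 with the blank subtracted, 51 and 37 with a dye term, and 49 and 36 among the 980 members brighter than 2 times the blank in both channels. Median centring gave 16 higher and 26 lower. With no normalization within arrays there were 1 higher and 5 lower calls, 6 members with an interval within 2-fold, a members' median of 0.275 (0.271 over all probes) and 27 members with the same sign on all arrays. With the curve through the GenBank-derived probes there were 116 higher and 24 lower calls, and the members' median was 0.106 (0.109 over all probes). With each array left out in turn, 27 to 48 members were called higher and 27 to 41 lower, 1034 to 1045 had an interval within 2-fold, the median ranged from -0.008 to 0.002, and 322 to 416 had the same sign on the 3 arrays left, a condition that fewer arrays meet more easily. None of the 85 called members changed the sign of its mean under these alternatives. Which of these centres the arrays best was not tested.

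Under 7 other normalizations and models (all of the above but no normalization and the bright probes), 16 of the 49 higher and 21 of the 36 lower calls were kept, and with any array left out 26 and 26 were kept. The 52 named clones include members that were not called and so had no call to lose. Among those that were called, no normalization took the call from 35, median centring from 16 and leaving out array 4 from 12. The fit is itself paired, since each array's ratio sets SAM against NM of the same collection, and no further replicate block was fitted. Signals near the blank limit what the dim members can show, since small ratios there may be compressed.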

Other observations

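Members on the left columns of the array had median log2 SAM/NM ratios of -0.07, 0.11, -0.05 and 0.04 on arrays 1 to 4, and members on the right columns 0.05, -0.09, 0.01 and -0.02. On each side the sign followed the dye layout of the array. Over the mean of the arrays the medians were 0.006 for 547 members on the left and -0.004 for 544 on the right, with 21 and 28 called higher and 12 and 24 called lower. The part of position in single calls was not tested.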
